A study of Homo sapiens with 33 samples.

Results

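The transcripts of 10 genes of the NF-kB system were followed in acute lymphoblastic leukaemia (ALL) cell lines. They were the subunit genes NFKB1, NFKB2, REL, RELA and RELB and the inhibitor or regulator genes NFKBIA, NFKBIE, NFKBIZ, TNFAIP3 and BCL3. They were chosen by symbol, with earlier results of these data known, and all 10 were found among the 62446 gene rows of each library. The lists of other genes used below were also chosen with such results known. Counts and medians of members or list genes beside those of all genes are therefore descriptive. The RNA-seq series held 33 libraries in 11 groups of 3. For Nalm6, a B-cell precursor ALL line, the groups were untreated cells, 0.5 µM CHIR-99021 (which blocks the kinase GSK3 and so activates Wnt signalling), 5 µM prednisolone, 100 nM dexamethasone and a second untreated group that belongs with dexamethasone. Nalm6 cells edited with CRISPR/Cas9 and titled as a TLE1 knockout (TLE1 encodes a transcriptional co-repressor) had an untreated group, 1 with prednisolone at 5 µM and 1 with dexamethasone at 100 nM. For CEM, a T-cell ALL line, the groups were untreated cells, CHIR-99021 at 2 µM and prednisolone at 10 µM. All treatments lasted 24 h, and for Nalm6 and the knockout the labels give a medium with charcoal-stripped serum, from which steroids are largely removed. Whether the knockout is a single clone, and which guide made it, is not given in the sources used here.

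NF-kB factors are dimers of 5 related subunits. NFKB1 and NFKB2 encode precursors that are cut to the DNA-binding proteins p50 and p52, whereas RELA, REL and RELB encode the subunits with transactivation domains. In resting cells the IkB proteins encoded by NFKBIA (IkB-alpha) and NFKBIE (IkB-epsilon) hold dimers in the cytoplasm until IkB kinase marks them for degradation. NFKBIZ (IkB-zeta) and BCL3 encode nuclear IkB-like proteins that bind p50 or p52 at chromatin and can raise or lower transcription, and TNFAIP3 encodes A20, a ubiquitin-editing enzyme that shuts off signalling upstream of the kinase. Several of these genes are themselves NF-kB targets. Glucocorticoids restrain NF-kB in lymphoid cells, and induction of NFKBIA is a classical part of that response.

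Promoter sequence was available from RefSeq (GRCh38.p14) for 8 of the 10 genes, in 13 windows that cover the 250 bases before each annotated transcript start; RELB and NFKBIE had no entry. Each window was searched on both strands for a kappaB-like pattern (GGG, then any 3 bases, then TTCC) and for a glucocorticoid response element pattern (ACA and TGT held apart by any 3 bases, with G before and C after them across 1 free base on each side). The kappaB pattern lay in 7 of the 13 windows, belonging to 6 genes (NFKB1, NFKB2, REL, NFKBIA, NFKBIZ and TNFAIP3), against 5.67% of the 35116 RefSeq windows of the same length; it was picked after these sequences had been seen. The glucocorticoid pattern lay in 0 of the 13 windows and in 0.327% of all windows, which says only that these letters are absent from the windows. The 4 promoters shown were picked among those with a kappaB match, for genes whose glucocorticoid responses are described below; BCL3, which also rose in Nalm6, has a window without a match that is not shown. They are written in the direction of transcription with the kappaB matches in capitals, which fit the pattern on this strand or on its complement. NFKBIA is chr14:35404750-35404999 (minus strand), NFKBIZ chr3:101827740-101827989 (plus), TNFAIP3 chr6:137867009-137867258 (plus) and NFKB2, at the second of 3 starts, chr10:102394328-102394577 (plus).
NFKBIA: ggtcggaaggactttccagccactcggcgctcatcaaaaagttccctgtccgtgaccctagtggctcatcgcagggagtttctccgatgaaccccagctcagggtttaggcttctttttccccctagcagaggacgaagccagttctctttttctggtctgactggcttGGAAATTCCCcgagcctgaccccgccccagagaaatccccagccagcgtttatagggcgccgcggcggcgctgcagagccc
NFKBIZ: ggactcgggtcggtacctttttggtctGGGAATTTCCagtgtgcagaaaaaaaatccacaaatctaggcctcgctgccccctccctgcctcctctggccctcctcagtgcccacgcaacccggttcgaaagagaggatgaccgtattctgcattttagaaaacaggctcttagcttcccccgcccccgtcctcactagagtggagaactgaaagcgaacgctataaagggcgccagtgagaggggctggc
TNFAIP3: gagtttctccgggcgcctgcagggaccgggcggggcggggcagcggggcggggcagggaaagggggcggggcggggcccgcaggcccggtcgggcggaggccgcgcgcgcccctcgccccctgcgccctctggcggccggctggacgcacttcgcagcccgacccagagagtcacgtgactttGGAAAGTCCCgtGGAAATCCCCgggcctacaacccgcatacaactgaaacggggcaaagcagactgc
NFKB2: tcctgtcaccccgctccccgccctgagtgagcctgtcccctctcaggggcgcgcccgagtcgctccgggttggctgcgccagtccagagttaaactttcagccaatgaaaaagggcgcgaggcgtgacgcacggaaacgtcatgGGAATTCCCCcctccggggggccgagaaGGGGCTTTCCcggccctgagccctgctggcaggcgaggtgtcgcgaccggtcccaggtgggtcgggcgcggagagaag
NFKBIA carried its match at bases -81 to -72 from the start, and NFKBIZ carried its match farther out, at -223 to -214. TNFAIP3 had a pair of matches at -67 to -58 and -55 to -46. NFKB2 had matches at -106 to -97 and -78 to -69 in the window shown and at -21 to -12 before the third start. The 2 matches of REL, at -47 to -38 and -46 to -37, overlap on opposite strands.

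**Figure D1:**
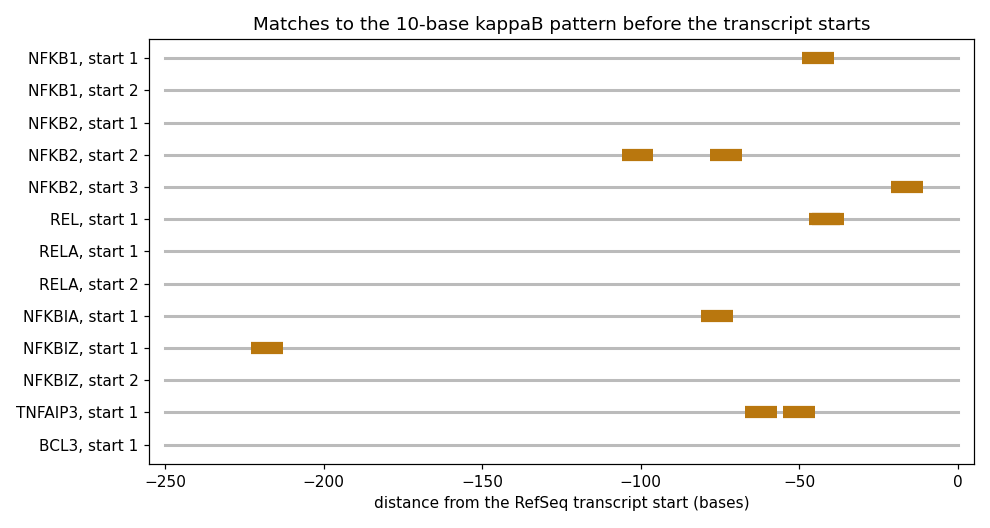
Positions of the kappaB pattern (orange) in the 13 promoter windows of the 8 genes with a RefSeq entry; the x axis is the distance in bases before the annotated start. Matches lie in 7 windows, and those of RELA and BCL3 hold none.

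The libraries held 25290000 to 61930000 counts in genes. B-cell precursor markers summed to 1853 to 2632 CPM (counts scaled to a library total of 1000000) in Nalm6 and 59.1 to 96.4 in CEM, and T-cell markers to 1086 to 1229 CPM in CEM and 2.99 to 12.3 in Nalm6, so each line carried the markers of its lineage. TLE1 transcript was present in the untreated knockout, at 25.4, 24.0 and 24.0 CPM against 30.2, 34.0 and 31.8 in untreated Nalm6. It rose by 1.795 (prednisolone) and 2.25 (dexamethasone) on the log2 scale in Nalm6, and by 1.31 with prednisolone in the knockout. Under dexamethasone it was lower in the knockout than in Nalm6 (-1.18). A gene count does not show whether protein is made. TSC22D3, a standard glucocorticoid-induced gene, rose by 3.99 (prednisolone) and 5.23 (dexamethasone) on the log2 scale in Nalm6, 4.37 in the knockout and 5.96 in CEM under prednisolone. Its level was lower in the knockout than in Nalm6, both untreated (-1.52) and under dexamethasone (-1.58). With prednisolone it gave 154, 154 and 163 CPM in the knockout against 329, 341 and 376 CPM in Nalm6. Library 3 of CHIR-treated Nalm6 and library 3 of the untreated knockout stood apart from their replicates, with a chi-square per degree of freedom of 37.5 and 39.0, and of 26.1 and 29.3, where all other pairs gave 1.77 to 16.7. By the naming of the deposited files the libraries form 2 sets, and the dexamethasone-treated knockout lies in the second set, whereas the untreated knockout lies in the first.

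In untreated Nalm6 the most abundant of the 10 transcripts per length were 2 inhibitors. TNFAIP3 stood at 31.2 CPM per kb of exon and NFKBIA at 23.5, followed by NFKB1 at 16.8 and RELA at 12.8. NFKBIE (6.32) and NFKB2 (5.91) were intermediate, REL (2.45), RELB (2.22) and NFKBIZ (1.46) were low, and BCL3 was near the limit of useful counting at 0.236, with 40 to 45 counts per library. These levels divide by all annotated exons of a gene, which understates REL, with 13.2 kb of annotated exon. Over the 11 groups, RELA was the steadiest subunit gene, with group means from 60.8 to 80.5 CPM, whereas RELB spanned 2.03 to 11.7 CPM. NFKBIA spanned 44.7 to 160 CPM and NFKBIZ 8.64 to 33.4 CPM.

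Glucocorticoid raised the IkB gene NFKBIA in every line tested. In untreated Nalm6 NFKBIA gave 53.5, 56.8 and 56.7 CPM, and under prednisolone 157, 151 and 158 CPM. The 3 treated libraries all lay above the 3 untreated ones, and NFKBIA rose by 1.45 ± 0.04 on the log2 scale (standard error; edgeR quasi-likelihood test, adjusted p = 1.146e-14), a 2.74-fold increase. Under dexamethasone it rose from 54.7, 50.7 and 52.6 CPM to 161, 160 and 157 CPM (1.56 ± 0.04, adjusted p = 8.941e-13). Without any overlap, the same gene went from 45.9, 42.3 and 45.8 CPM to 114, 108 and 106 CPM in CEM under prednisolone (1.26 ± 0.04, adjusted p = 3.705e-14). In the order of group means, the Nalm6 dexamethasone and prednisolone groups were highest (160 and 155 CPM) and did not differ beyond their spread, prednisolone-treated CEM (109) and knockout (102) followed, then the dexamethasone-treated knockout (87.9), and the 6 groups without glucocorticoid lay lowest, from 44.7 to 55.7 CPM, with neighbours inside each other's spread.

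NFKBIZ, which encodes the nuclear regulator IkB-zeta, had the largest rise of the 10 genes in Nalm6. It gave 9.46, 8.39 and 8.06 CPM untreated and 27.2, 27.6 and 28.4 CPM under prednisolone (1.65 ± 0.06, adjusted p = 7.073e-13). In the dexamethasone set it gave 8.87, 8.71 and 8.64 CPM untreated and 33.9, 33.9 and 32.5 CPM treated (1.90 ± 0.06, adjusted p = 1.776e-12), a 3.72-fold increase. The treated and untreated groups were wide apart in both sets. In CEM the rise was small: 11.9, 10.6 and 10.8 CPM became 14.3, 13.1 and 14.1 CPM (0.29 ± 0.07, adjusted p = 0.001457).

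TNFAIP3, the gene of the deubiquitinase A20, went the other way under prednisolone. In Nalm6 it fell from 152, 159 and 163 CPM to 122, 122 and 117 CPM (-0.42 ± 0.04, adjusted p = 4.454e-08), and in CEM from 130, 136 and 129 CPM to 104, 97.3 and 101 CPM (-0.42 ± 0.04, adjusted p = 2.904e-08). Under dexamethasone the Nalm6 groups overlapped, with 115, 125 and 138 CPM untreated against 117, 121 and 112 CPM. The fall of -0.15 ± 0.05 (adjusted p = 0.02848) was called under 8 of 13 alternative settings only.

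BCL3, the other nuclear IkB-like gene, rose in Nalm6 at a low level. It went from 0.727, 0.816 and 0.749 CPM to 1.29, 1.54 and 1.36 CPM under prednisolone (0.86 ± 0.18, adjusted p = 0.00062) and from 1.17, 1.38 and 1.41 CPM to 3.05, 2.95 and 3.11 CPM under dexamethasone (1.18 ± 0.13, adjusted p = 3.003e-06). In CEM its groups overlapped under prednisolone (0.17 ± 0.19, adjusted p = 0.4856). NFKBIE passed the test in none of the 3 comparisons, with log2 fold changes of 0.07 and 0.15 in Nalm6 and 0.09 in CEM.

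**Figure D2:**
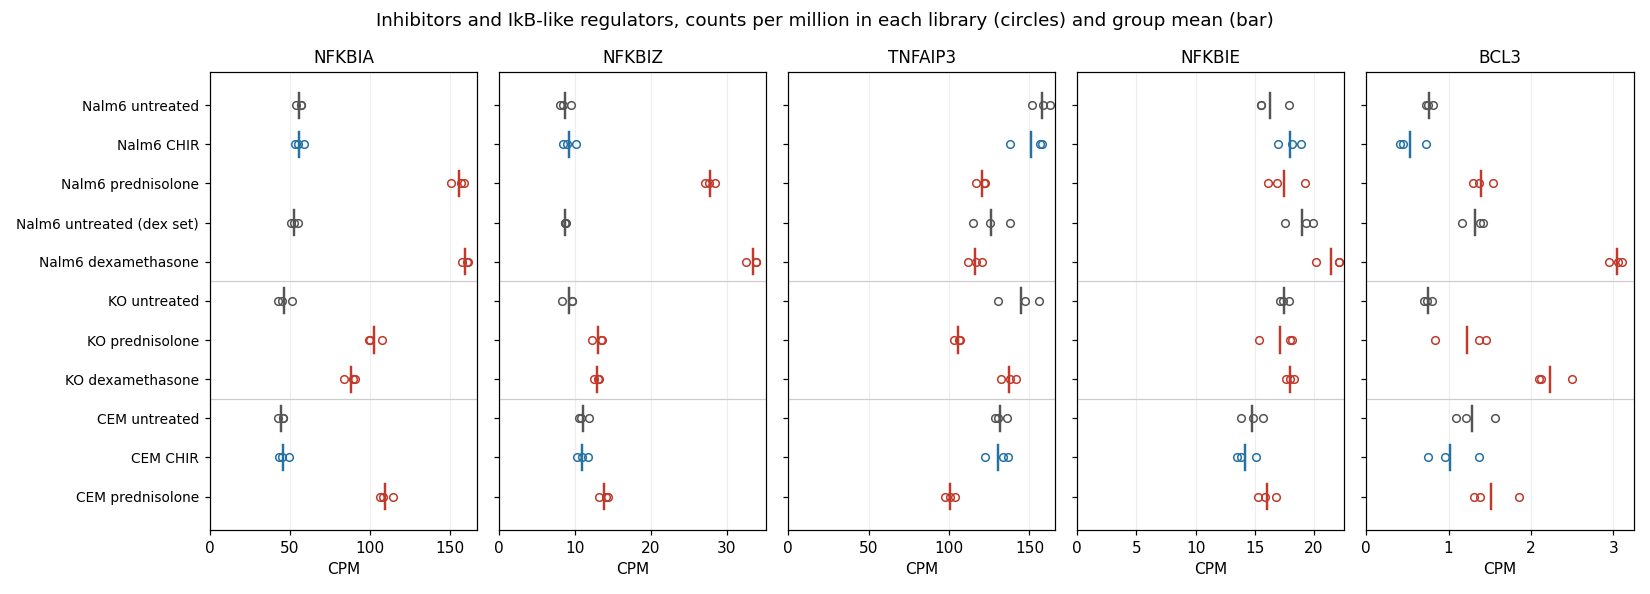
CPM (x axes, linear, from 0) of the 5 inhibitor and regulator genes in each of the 33 libraries; circles are libraries, bars group means, and red, blue and grey mark glucocorticoid, CHIR-99021 and untreated groups. NFKBIA was high in every glucocorticoid group, from 83.6 to 161 CPM, and NFKBIZ stood out in treated parental Nalm6, at 27.2 to 33.9 CPM.

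Of the subunit genes, those of the non-canonical dimer p52 and RELB rose in Nalm6. NFKB2 gave 25.3, 28.0 and 26.3 CPM untreated and 41.9, 41.7 and 41.9 CPM under prednisolone (0.63 ± 0.05, adjusted p = 3.068e-09). RELB gave 5.93, 7.47 and 6.83 CPM untreated and 10.7, 10.3 and 11.4 CPM treated (0.66 ± 0.09, adjusted p = 4.281e-06). Neither pair of groups overlapped. Under dexamethasone NFKB2 rose from 30.2, 32.5 and 36.7 to 48.8, 46.3 and 49.0 CPM (0.50 ± 0.06, adjusted p = 4.22e-06) and RELB from 6.25, 6.25 and 8.04 to 12.1, 10.5 and 12.5 CPM (0.74 ± 0.10, adjusted p = 1.906e-05).

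The genes of the canonical subunits gave mixed results. RELA, the main transactivating subunit, did not pass the test in Nalm6 (-0.004 ± 0.04 with prednisolone and 0.04 ± 0.05 with dexamethasone) or in CEM (0.004 ± 0.04). NFKB1 was at -0.06 ± 0.04 (adjusted p = 0.1583) with prednisolone and -0.11 ± 0.04 (adjusted p = 0.02076, called under 9 of 13 alternatives) with dexamethasone in Nalm6. In CEM NFKB1 rose from 67.4, 65.1 and 66.5 CPM to 79.5, 78.4 and 76.7 CPM (0.21 ± 0.03, adjusted p = 4.138e-05). REL, the gene of c-Rel, rose in CEM from 18.2, 19.3 and 19.9 CPM to 27.3, 25.3 and 27.3 CPM (0.45 ± 0.05, adjusted p = 1.281e-06) and in Nalm6 with dexamethasone from 27.2, 28.6 and 26.6 to 34.5, 37.4 and 34.7 CPM (0.34 ± 0.05, adjusted p = 4.93e-05). Its change with prednisolone in Nalm6, 0.13 ± 0.05 (adjusted p = 0.02554), was called under 4 of 13 alternative settings.

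**Figure D3:**
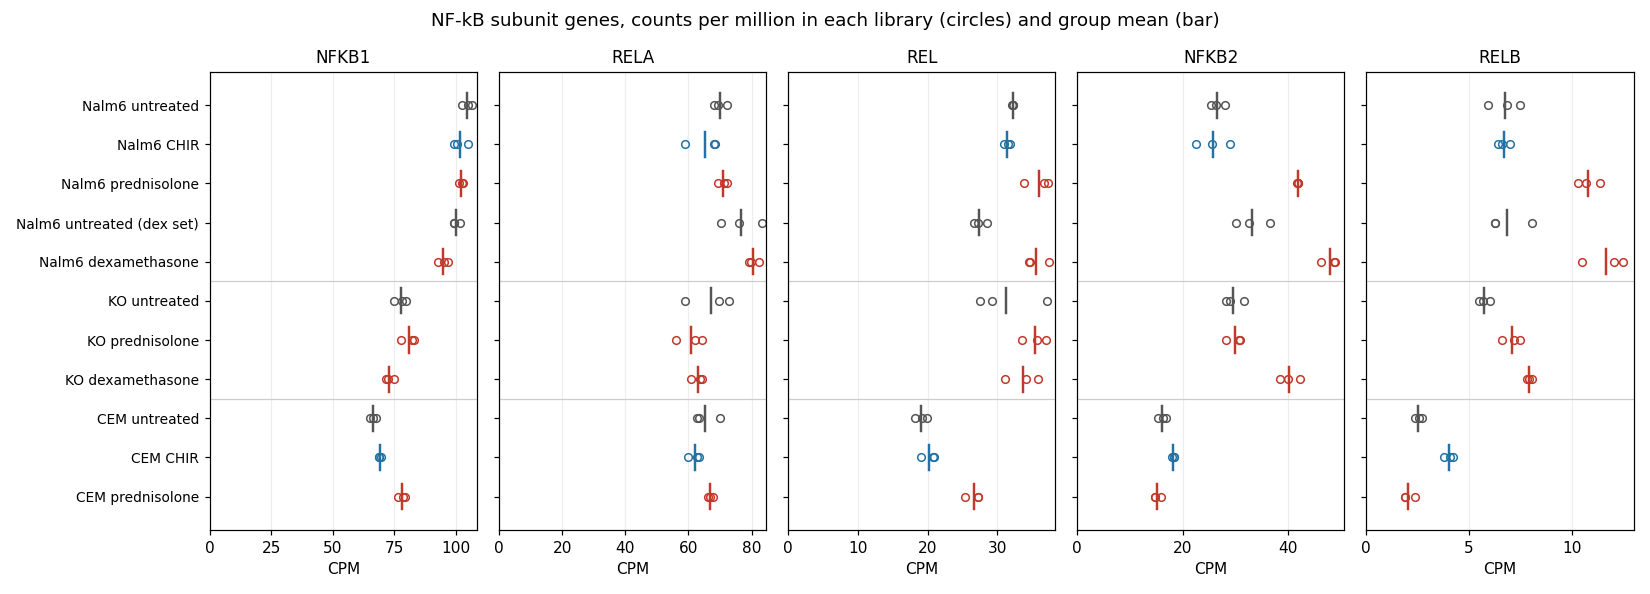
CPM (x axes, linear, from 0) of the 5 subunit genes in each of the 33 libraries, drawn as for the inhibitors. NFKB2 and RELB were higher in glucocorticoid-treated than in untreated Nalm6 and lowest in the 3 CEM groups, whereas RELA group means stayed between 60.8 and 80.5 CPM.

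Counted together, 7 of the 10 genes were called with prednisolone in Nalm6 (6 higher and 1 lower), in a comparison in which 54.8% of 18658 genes were called, and 8 of 10 with dexamethasone (6 higher and 2 lower), where 60.5% were called. In CEM 5 of 10 were called with prednisolone (4 higher and 1 lower) against 45.1% of all genes. These shares lie close to the background of broad responses. By size, NFKBIA and NFKBIZ passed an absolute log2 fold change of 1 with prednisolone in Nalm6, where 8.78% of genes did so as called genes. The median log2 fold change of the 10 genes was 0.38 with prednisolone and 0.42 with dexamethasone in Nalm6, beside 0.03 and 0.02 for all genes. Prednisolone and dexamethasone were given at different doses and in different sets, so their values stand side by side without a comparison.

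Summed over genes, the 5 inhibitor and regulator transcripts rose from 239 ± 7.64 CPM (SD, n = 3) to 322 ± 3.76 with prednisolone in Nalm6, and the 5 subunit transcripts stood at 240 ± 5.53 and 262 ± 0.742. In CEM the inhibitor sum was 204 ± 2.04 untreated and 241 ± 8.11 with prednisolone, and the subunit sum 169 ± 3.07 and 189 ± 1.45. In the knockout the inhibitor sum was 218 ± 10.1 untreated and 239 ± 8.31 with prednisolone, beside subunit sums of 212 ± 11.5 and 214 ± 5.17. These sums were not tested, and most of the inhibitor sum is TNFAIP3 and NFKBIA.

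**Figure D4:**
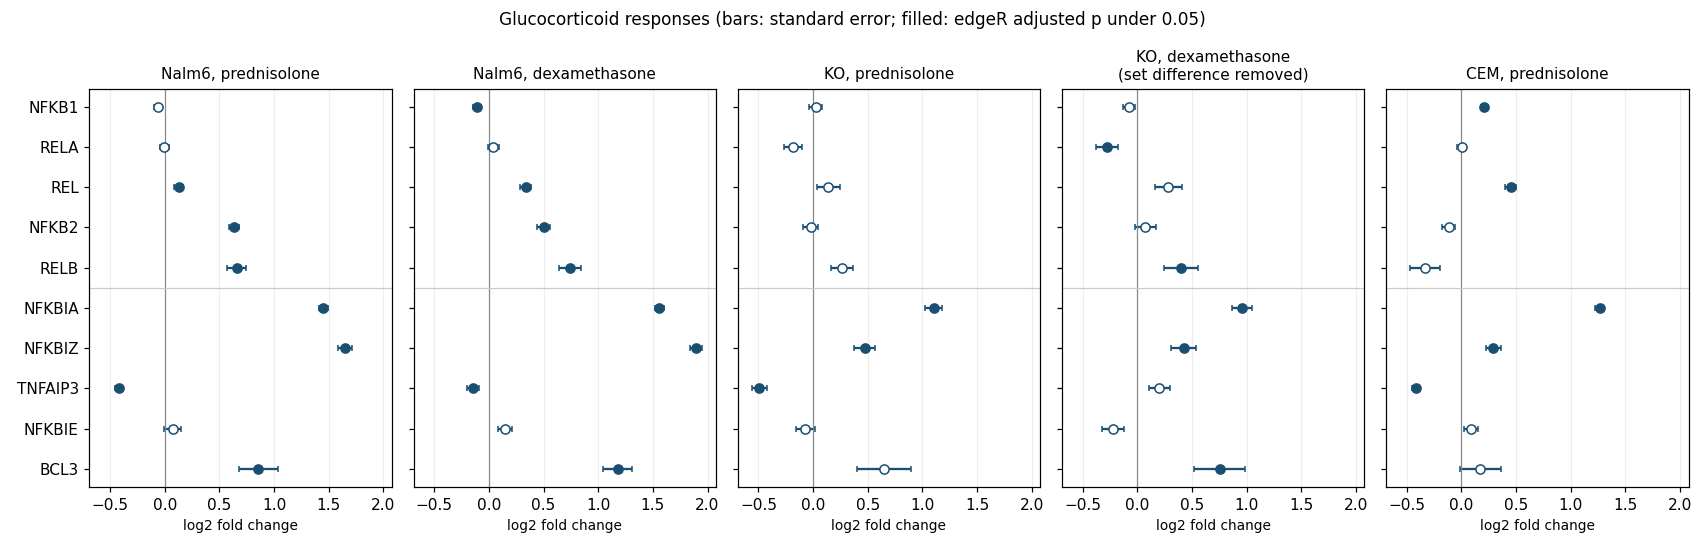
Log2 fold changes (x axes) of the 10 genes in 5 glucocorticoid comparisons; bars are standard errors and filled points passed an edgeR adjusted p of 0.05. NFKBIA lies to the right of 0 in all 5 panels, from 0.96 to 1.56, whereas NFKBIZ runs from 0.29 in CEM to 1.90 in Nalm6.

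The TLE1 knockout kept a rise of NFKBIA under prednisolone but had a much smaller rise of NFKBIZ and no called change of NFKB2. NFKBIA went from 45.0, 42.4 and 51.2 CPM to 99.3, 107 and 99.9 CPM (1.10 ± 0.08, adjusted p = 2.395e-06). NFKBIZ went from 9.66, 9.54 and 8.32 CPM to 12.2, 13.6 and 13.5 CPM (0.47 ± 0.10, adjusted p = 0.002534). TNFAIP3 fell from 156, 147 and 130 CPM to 103, 107 and 107 CPM (-0.49 ± 0.07, adjusted p = 0.0002374). These 3 of 10 genes were called, against 41.7% of all genes, and none of their groups overlapped. NFKB2, by contrast, gave 31.7, 29.02 and 28.2 CPM untreated and 28.3, 30.9 and 30.8 CPM with prednisolone, with overlapping groups (-0.02 ± 0.07). RELB (0.27 ± 0.10, adjusted p = 0.06371) and BCL3 (0.65 ± 0.25, adjusted p = 0.05883) did not pass.

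Whether the response itself differed between knockout and parental cells was tested as an interaction, at the same dose and within the first set. NFKBIZ responded less in the knockout by -1.16 ± 0.11 on the log2 scale (adjusted p = 1.495e-05), and NFKB2 by -0.63 ± 0.08 (adjusted p = 0.0002376). These were 2 of 10 genes called, against 3.48% of all genes, and both remained called under all 19 alternative settings. The difference for NFKBIA, -0.33 ± 0.09, did not pass (adjusted p = 0.07256), and it was called under 4 of 19 alternatives. For TNFAIP3 the 2 responses differed by -0.05 ± 0.08 (adjusted p = 0.7948). Nor did the difference pass for RELB (-0.37 ± 0.14, adjusted p = 0.1874) or BCL3 (-0.18 ± 0.29, adjusted p = 0.8025). Without the untreated knockout library that stood apart, NFKBIZ was at -1.22, NFKB2 at -0.66 and NFKBIA at -0.24 (adjusted p = 0.05512).

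Before treatment the knockout differed from Nalm6 in 2 of the 10 genes, where 27.1% of all genes were called. NFKB1 gave 79.6, 75.1 and 78.3 CPM in the knockout against 105, 107 and 103 CPM in Nalm6, without overlap (-0.41 ± 0.04, adjusted p = 0.0001894). NFKBIA was lower by a smaller amount (-0.24 ± 0.07, adjusted p = 0.03017), called under 7 of 13 alternatives. Without the library that stood apart NFKB1 was at -0.42, NFKBIA at -0.33 and NFKB2 at 0.21, the last then called (adjusted p = 0.01904). NFKBIZ, the gene whose response differed most, did not pass in untreated cells (0.11 ± 0.09, adjusted p = 0.4295).

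Under dexamethasone, knockout and parental cells of the second set could be compared directly. NFKBIZ gave 13.1, 12.5 and 13.1 CPM in the knockout against 33.9, 33.9 and 32.5 CPM in Nalm6 (-1.36 ± 0.05, adjusted p = 2.861e-15). NFKBIA gave 83.6, 89.3 and 90.8 CPM against 161, 160 and 157 CPM (-0.85 ± 0.04, adjusted p = 1.671e-14). Both gaps far exceed the spread of the libraries. In all 9 of 10 genes were called, 8 lower and 1 higher in the knockout, against 56.6% of all genes. The others that were lower were RELB (-0.55), BCL3 (-0.43), NFKB1 (-0.37), RELA (-0.34), NFKB2 (-0.24) and NFKBIE (-0.24), and TNFAIP3 was higher (0.25 ± 0.03, adjusted p = 1.929e-06).

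That contrast includes differences present before treatment, so the knockout-to-parental difference under dexamethasone was also set against the one in untreated cells. This removes a set difference only where both lines share it. By this measure 6 of 10 genes were called, against 30.3% of all genes: NFKBIZ (-1.48 ± 0.10, adjusted p = 1.908e-08), NFKBIA (-0.61 ± 0.09, adjusted p = 5.068e-05), NFKB2 (-0.44 ± 0.07, adjusted p = 0.000316), NFKBIE (-0.37 ± 0.10, adjusted p = 0.006815), RELA (-0.32 ± 0.08, adjusted p = 0.007436) and TNFAIP3 (0.34 ± 0.07, adjusted p = 0.00217). Of these, NFKBIZ and NFKBIA rose less in the knockout. NFKB2 rose in Nalm6 (0.50 ± 0.06) and had no called dexamethasone response in the knockout by the edgeR estimate described below (0.07 ± 0.10, adjusted p = 0.5897). NFKBIE and RELA, not called with dexamethasone in Nalm6 (0.15 and 0.04), were relatively lower in the knockout, and TNFAIP3 was relatively higher there. Between the untreated Nalm6 sets these genes differed the opposite way (0.27, 0.19 and -0.26), and NFKB2 differed by 0.38. In the knockout, untreated and with dexamethasone, NFKBIE stood at 17.5 and 18.0 CPM, RELA at 67.2 and 62.9, and TNFAIP3 at 145 and 137. For these genes, a set difference not shared by both lines cannot be told apart from a different response. This test and that of the prednisolone response share the untreated libraries of the first set, so their values stand side by side. An estimate of the dexamethasone response within the knockout, with the set difference taken from untreated Nalm6, called 5 of 10 genes against 40% of all genes. It gave 0.96 ± 0.09 for NFKBIA, 0.43 ± 0.11 for NFKBIZ, 0.75 ± 0.23 for BCL3, 0.40 ± 0.15 for RELB and -0.27 ± 0.10 for RELA. RELB and RELA were each called under 8 of 19 alternatives.

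**Figure D5:**
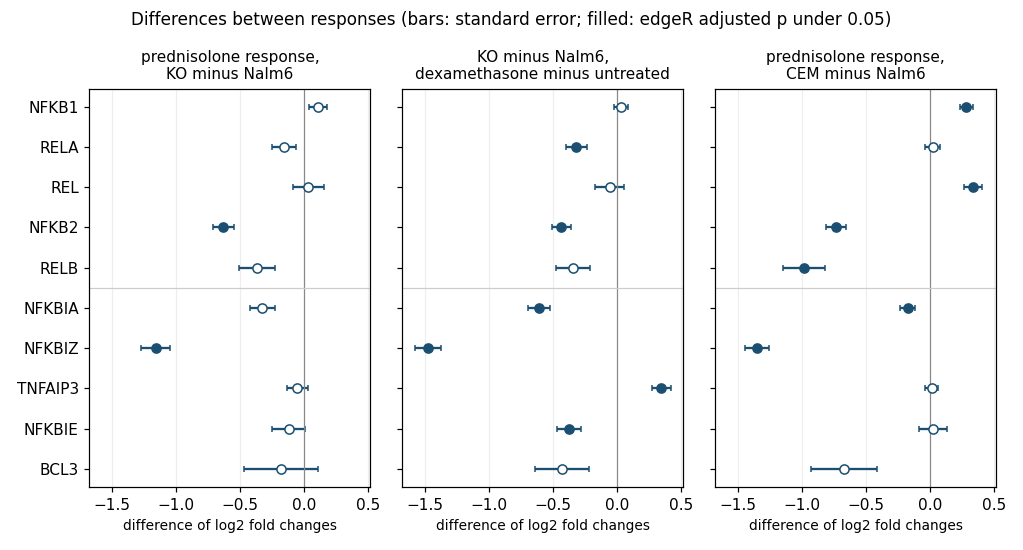
Differences of log2 fold changes (x axes) of the 10 genes between responses; bars are standard errors and filled points passed an edgeR adjusted p of 0.05. NFKBIZ is the lowest point of each panel, at -1.16, -1.48 and -1.35, and NFKB2 lies at -0.63, -0.44 and -0.74.

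The 2 untreated Nalm6 groups themselves differed in 6 of the 10 genes (4 higher and 2 lower in the dexamethasone set), where 50.2% of all genes were called. BCL3 was higher by 0.84 ± 0.17, NFKB2 by 0.38 ± 0.07, NFKBIE by 0.27 ± 0.07 and RELA by 0.19 ± 0.05, and TNFAIP3 (-0.26 ± 0.05) and REL (-0.17 ± 0.05) were lower. NFKBIA (-0.02 ± 0.05) and NFKBIZ (0.08 ± 0.08) did not pass. Levels of the first 6 genes across the sets therefore mix treatment with set, and the 2 cannot be told apart there.

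CHIR-99021 gave few calls among these genes. In Nalm6 0 of 10 were called by edgeR, against 7.88% of all genes, and also 0 by DESeq2 and without the CHIR library that stood apart; at an unadjusted p under 0.05 the count was 0. NFKBIA gave 52.9, 54.8 and 58.8 CPM with CHIR-99021, beside 53.5, 56.8 and 56.7 CPM untreated. In CEM, at a higher dose, 2 of 10 were called, both higher, against 10.8% of all genes. RELB rose from 2.69, 2.35 and 2.54 CPM to 3.76, 4.07 and 4.20 CPM without overlap (0.68 ± 0.10, adjusted p = 0.001574) and was called under all 13 alternatives. NFKB2 rose from 15.3, 16.2 and 16.8 CPM to 18.4, 18.3 and 17.9 CPM (0.20 ± 0.06, adjusted p = 0.0424), called under 4 of 13 alternatives. With prednisolone the same 2 genes stood at -0.34 ± 0.14 (RELB, adjusted p = 0.05365) and -0.12 ± 0.06 (NFKB2, adjusted p = 0.1242) in CEM.

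The prednisolone responses of CEM (10 µM) and Nalm6 (5 µM) differed in 6 of 10 genes, against 26.9% of all genes. Dose, set and line cannot be told apart in this contrast. Nor can any difference in medium, as charcoal-stripped serum is stated above only for Nalm6 and the knockout. NFKBIZ (-1.35 ± 0.09, adjusted p = 5.065e-11), RELB (-0.98 ± 0.16, adjusted p = 5.437e-05) and NFKB2 (-0.74 ± 0.08, adjusted p = 5.303e-08) had a lower log2 fold change in CEM. There NFKBIZ rose less, and neither RELB nor NFKB2 was called in the main fit. REL (0.34 ± 0.07, adjusted p = 0.0004372) and NFKB1 (0.28 ± 0.05, adjusted p = 0.0001135) responded more. NFKBIA was at -0.18 ± 0.06 (adjusted p = 0.03892) and was called under 6 of 19 alternatives. For TNFAIP3 the difference was 0.01 ± 0.05 (adjusted p = 0.9457).

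Untreated CEM had less transcript of every subunit gene than untreated Nalm6 of its own set. RELB was lower by -1.47 ± 0.12, NFKB2 by -1.08 ± 0.07, NFKB1 by -0.63 ± 0.04, REL by -0.56 ± 0.06 and RELA by -0.26 ± 0.06. Of the inhibitors NFKBIE (-0.39 ± 0.07) and NFKBIA (-0.28 ± 0.05) were lower and NFKBIZ was higher (0.30 ± 0.08). In all 8 of 10 genes were called, against 77.5% of all genes between these lines. Line and any difference in medium cannot be told apart there. Set against the other untreated Nalm6 group, RELA (-0.05) and NFKBIE (-0.09) were no longer called, while TNFAIP3 (-0.21) and BCL3 (0.82) then were.

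Other genes of the pathway were counted in the same comparisons, and those named here have an average log2 CPM of at least 0. Of 57 further pathway genes, 53 were measured with prednisolone in Nalm6; 27 rose and 11 fell, 38 of 53 called where 54.8% of all genes were called, with a median log2 fold change of 0.16 beside 0.03 for all genes. BIRC3, which encodes the ubiquitin ligase cIAP2, rose from 0.510 to 3.87 CPM (2.89 ± 0.16). Below that level, the receptor gene IL1R1 rose by 2.92 ± 0.46 and the lymphotoxin gene LTB fell by 3.29 ± 0.37. IL1R1, at 0.0404 CPM untreated and 0.324 CPM treated, passed the count filter through its treated group and could enter only as a rise. NFKBID, the gene of another nuclear IkB-like protein, rose from 9.33 to 22.4 CPM (1.25 ± 0.07), and CYLD, a deubiquitinase that limits NF-kB signalling, from 35.0 to 49.9 CPM (0.48). TRAF3, whose product keeps the non-canonical kinase NIK low, fell from 86.7 to 57.7 CPM (-0.61 ± 0.04), and NFKBIB, the gene of IkB-beta, fell from 31.2 to 24.7 CPM (-0.36). MAP3K14, the NIK gene, was at -0.15.

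With dexamethasone in Nalm6 24 of 54 pathway genes rose and 11 fell, beside 60.5% of all genes called, with a median of 0.12 beside 0.02 for all genes. BIRC3 (3.97 ± 0.17), TNFRSF13C, the BAFF receptor gene (1.498 ± 0.05), and NFKBID (1.07 ± 0.06) rose, and TRAF3 (-0.69 ± 0.04) and TLR4 (-0.76 ± 0.09) fell. In the knockout with prednisolone 15 of 51 rose and 8 fell, 23 of 51 called beside 41.7% of all genes, a share near the background. BIRC3 rose by 1.36 ± 0.16, CYLD by 0.45 and NFKBID by 0.47, and TRAF3 (-0.60 ± 0.07) and NFKBIB (-0.60 ± 0.09) fell. In CEM with prednisolone 12 of 50 rose and 9 fell, 21 of 50 called beside 45.1% of all genes, also near the background. BIRC3 rose from 25.9 to 84.4 CPM (1.68 ± 0.04), CYLD by 0.39 and IKBKE, an IkB kinase-related gene, by 0.54, while NFKBID was at 0.01 and TRAF3 at 0.08, neither called. The response difference between knockout and parental cells called 5 of 52 pathway genes beside 3.48% of all genes. The called differences, knockout minus Nalm6, were all negative, among them BIRC3 (-1.499 ± 0.23), NFKBID (-0.75 ± 0.12) and TNFRSF13C (-0.61 ± 0.10). BIRC3 started higher in the knockout, at 1.58 CPM untreated against 0.510 CPM in Nalm6. With prednisolone its level was not lower there, at 4.18 against 3.87 CPM. NFKBID (16.7 against 22.4 CPM) and TNFRSF13C (40.3 against 59.3 CPM) were lower in the treated knockout than in treated Nalm6. The count of called pathway genes was 3 with the replicate block and 11 without the untreated knockout library that stood apart. It was 3 under most other omissions of a library. CYLD fell with CHIR-99021 in Nalm6 (-0.36) and in CEM (-0.27), where it had risen with glucocorticoid.

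Textbook NF-kB target genes, a list that shares BIRC3, TRAF1, TNF, LTA and LTB with the pathway list, moved in both directions. Of 44 listed, 21 were measured with prednisolone in Nalm6; 12 rose and 7 fell, 19 of 21 called where 54.8% of all genes were called, with a median log2 fold change of 0.54 beside 0.03. GADD45B, a stress-response gene, rose from 5.49 to 18.3 CPM (1.70 ± 0.07), ICAM1, an adhesion receptor gene, from 15.6 to 31.2 CPM (0.97 ± 0.05), and IRF4, a lymphoid transcription factor gene, from 302 to 568 CPM (0.88 ± 0.04). IL1B, the interleukin-1 beta gene, fell from 4.60 to 1.23 CPM (-1.94 ± 0.12), and CD83 (-0.52 ± 0.06) and TNFAIP8 (-0.53 ± 0.05) fell. The count filter can keep a gene for its treated group alone, and such a gene can enter only as a rise. EBI3, at 0.0194 CPM untreated and 1.39 CPM with prednisolone, was of this kind. With CHIR-99021, against the same untreated libraries, 18 targets were measured. The counts, shares and medians given here include such genes. With dexamethasone 10 of 22 rose and 7 fell, 17 of 22 called beside 60.5% of all genes, with EBI3, a cytokine subunit gene, going from 0.0454 to 3.44 CPM and IL1B at -2.46 ± 0.18. In the knockout 6 of 18 rose and 6 fell, 12 of 18 called beside 41.7% of all genes, and ICAM1 rose by 1.17 ± 0.07; GADD45B responded less there than in Nalm6 (-1.28 ± 0.15). In CEM 7 of 21 rose and 8 fell, 15 of 21 called beside 45.1% of all genes, with PLAU, the urokinase gene, at 1.31 ± 0.12 and BCL2L1, which encodes the survival protein BCL-XL, at -0.42 ± 0.03. With CHIR-99021, 3 of 52 pathway genes and 3 of 18 targets were called in Nalm6 and 8 of 50 and 11 of 21 in CEM, beside 7.88% of all genes in Nalm6 and 10.8% in CEM. The Nalm6 pathway count was 7 without the CHIR library that stood apart, the Nalm6 target count 0 without untreated library 3, and the CEM pathway count 4 or 5 in 5 of 6 omissions of a library.

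The genes whose group means ran most like those of a member were found among 10975 genes by Pearson's r of log2(CPM + 1) over the 11 groups, as a description; the groups share libraries, sets and lines. NFKBIA ran most like GLUL (r = 0.981) and TXNIP (0.971), and NFKBIZ most like SGK1 (0.955) and STAB1 (0.952). NFKB2 and RELB ran alike (0.958), but each ran closer to genes outside the 10, NFKB2 to AKR1B1 (0.979) and RELB to UBE2D2 (0.975). REL ran like UTRN (0.988) and MAPK14 (0.975). TNFAIP3 stood alone among the 10 genes, with its closest member NFKB1 at r = 0.183.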

How the data were processed

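RNA from 33 cultures was sequenced. The authors deposited unnormalized counts of reads for each gene, laid out as the aligner STAR does it; the submitters' processing notes list hg19, Bowtie2 and DESeq2 without a role, and the build and annotation of the counts are otherwise not given in the sources used here. Column 4 (1 strand) was used, since it held 12.3 to 15.3 times the gene total of column 3. The 4 rows without a gene, 36.0% to 49.2% of reads, stayed out of sizes and tests. Groups follow the titles; the labels' treatment protocol gives CHIR-99021 and prednisolone the other way round for Nalm6 and the knockout. Comparisons were fitted singly, on the libraries of their own groups, with edgeR 4.0.16 in R 4.3.3 (filterByExpr, TMM, quasi-likelihood F test, Benjamini-Hochberg over all genes tested, called at an adjusted p under 0.05), and the standard error is the fold change over the square root of F. CPM is a count scaled to a library total of 1000000. The scripts were tested on simulated data. The contrast of knockout and Nalm6 under dexamethasone minus untreated was added after seeing the data.

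The members and lists were chosen with earlier results of these data known. All 10 members passed the count filter in every comparison. All members are named; list genes were named from the up to 4 largest called rises and falls of each list and comparison among genes with an average log2 CPM of at least 0, plus the close relatives BIRC3, TRAF1, NFKBIB, NFKBID, TNIP1, CYLD and MAP3K14, and TRAF3 where it was among them in another comparison; IL1R1 and LTB in Nalm6, below that level, were named after their values were seen. Of the 44 target genes, 43 matched an ID. Symbols came from the supplied name table; exon lengths came from GENCODE v29. The series text speaks of independent experiments for part of the groups, and elsewhere p-values measure only the spread between these libraries. Same-numbered libraries deviated together (r over 0.1 for each number) in 2 of 21 pairs of groups; in the comparison of untreated Nalm6 sets, where they did, the replicate block called the same number of genes, 6. The other pair was prednisolone-treated knockout and Nalm6, in whose response difference the block called the same number of members, 2, and 3 in place of 5 pathway genes. Alternatives were DESeq2 1.42.0, RLE size factors, filters, unstranded counts, a replicate block, all libraries together, another control set and leaving out each library.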

Additional observations from a re-analysis of the deposited data

Results flagged for a closer look

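A difference between 2 groups in the same contrast, tested as an interaction term with edgeR, passed an adjusted p of 0.05 for 14 values. For prednisolone, knockout minus Nalm6, these were NFKBIZ (-1.16) and NFKB2 (-0.63). For prednisolone, CEM minus Nalm6, at 10 and 5 µM, they were NFKBIZ (-1.35), RELB (-0.98), NFKB2 (-0.74), NFKBIA (-0.18), REL (0.34) and NFKB1 (0.28). For knockout minus Nalm6, dexamethasone minus untreated, they were NFKBIZ (-1.48), NFKBIA (-0.61), NFKB2 (-0.44), NFKBIE (-0.37), RELA (-0.32) and TNFAIP3 (0.34). Of these values, NFKBIA in CEM minus Nalm6 was called under 6 of 19 alternative settings.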

How the results depend on the processing

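Of 2068 single-gene values under alternative settings, 1955 kept their direction and side of the threshold, 73 lost a call, 38 gained a call and 2 turned direction; 71 changes of sign of values that were called in neither fit, at most 0.10 in size, are counted as kept. The 2 turned values were TNFAIP3 (-0.21) and BCL3 (0.82) in CEM against the other untreated Nalm6 set. The number of the 10 genes called moved by over 1.5 times as follows. Prednisolone in the knockout called 3 genes, but 5 with at least 10 counts in every library and 6 with all libraries fitted together, and 3 to 4 when 1 library was left out. CHIR-99021 in CEM called 2 genes, but 1 with DESeq2, with the replicate block and with all libraries fitted together, and 1 to 1 without single libraries. Dexamethasone in the knockout called 5 genes, but 3 with the replicate block, and 3 to 5 without single libraries. The untreated knockout called 2 genes, and 1 to 3 without single libraries. The replicate block also called RELB with prednisolone in CEM (-0.34, adjusted p = 0.04758) and dropped NFKB2 with CHIR-99021 in CEM and RELB and RELA with dexamethasone in the knockout. Replicate numbers are not taken as pairs in general: deviations of same-numbered libraries correlated from -0.58 to 0.39. Each library correlated best with its own number in 2 of 21 pairs of groups. These were prednisolone-treated with untreated Nalm6 (r = 0.09, 0.19 and 0.17) and prednisolone-treated knockout with prednisolone-treated Nalm6. The prednisolone comparison in Nalm6 was fitted without a block. There NFKBIA, NFKBIZ, NFKB2, RELB, TNFAIP3 and BCL3 were called under all 13 alternatives, the block included. BCL3, at 16 to 132 counts per library, is limited by depth.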
